A study of Mus musculus with 4 samples.

Results

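Cd74 and H2-Ab1 encode central parts of the antigen display machinery of MHC class II, and their RNA was followed in mouse lung after allergen challenge. All probes of the deposited table whose single annotated gene symbol is Cd74 or H2-Ab1 were taken, which gave 4 of 20205 probes, 3 for Cd74 and 1 for H2-Ab1. All 4 had a value on every array. Another 5 probes, for the 4 genes H2-DMa, H2-DMb1, H2-Eb1 and H2-Oa, served as the comparison.

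The study used BALB/cJ mice, an inbred strain. On each of 4 dual-colour arrays, total lung RNA of mice that had been sensitized to and then challenged with ovalbumin, the egg white allergen of many asthma models, was set against pooled lung RNA of 6 control mice that were not sensitized. Of these arrays 2 came from mice kept in particle-free air and 2 from mice exposed to air with UCP, an abbreviation the labels do not spell out. The control pool came from the same air as the challenged mice, so UCP exposure is shared by both channels of a UCP array and its own effect on a gene was not measured. In each air the challenged lung carried Cy5 on array 1 and Cy3 on array 2. Sensitized mice without challenge were not analysed here, so sensitization and challenge cannot be told apart. Whether both arrays of an air hold RNA of different animals is not stated in the labels, so p-values cover the spread between arrays alone, possibly a technical one.

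Class II molecules are pairs of an alpha and a beta chain on the surface of antigen-presenting cells, where they show peptides to CD4+ T cells. H2-Ab1 is the beta chain of the classical molecule I-A. Cd74, the invariant chain, fills the peptide groove of new class II molecules and guides them to endosomes. There cathepsins trim it to the fragment CLIP, which the non-classical class II molecule H2-DM exchanges for peptide. In the lung, dendritic cells, macrophages, B cells and alveolar type 2 cells are known to carry class II.

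All values are log2 ratios of challenged lung over control pool, as deposited, so a value of 1 is a doubling and no absolute level is known. Because they are ratios, the lung label cannot be checked against the level of lung markers. That the 4 arrays run the same way was read from their extreme values, which pile up at a positive bound on both Cy5 arrays and at a negative bound on both Cy3 arrays. The sign of all values together is likely and no more, resting on the custom of writing Cy5 over Cy3 and on genes with well-known induction in allergic airways, such as Chil3, which lay between 5.32 and 5.83. The arrays held 19349 to 19832 values, and 18160 probes measured on all 4 arrays were tested with limma, with Benjamini-Hochberg adjustment over all of them. The pool stands for the controls as 1 sample, so the spread among control animals is left out of every test. Whole lung RNA was measured, so a change in the number of cells and a change in RNA per cell cannot be told apart.

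The invariant chain and H2-Ab1 lay near a doubling in challenged lung. Of the 4 probes 3 were above 0 on all 4 arrays, where 12.7% of all probes were. Only 1 was at least 1.5-fold higher on all 4 arrays, where 1.13% of all probes were. In particle-free air all 4 probes were at least 1.5-fold higher on both arrays, where 3.68% of all probes were. In UCP air 1 of the 4 was, against 3.23% of all probes. None of the 4 passed the adjusted test in the averaged effect, where 0.00551% of all probes (1 of 18160) passed, while all 4 had an unadjusted p under 0.05 on the high side, against 6.45% of all probes. The 3 Cd74 probes report the same gene and are not separate evidence.

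**Figure D1:**
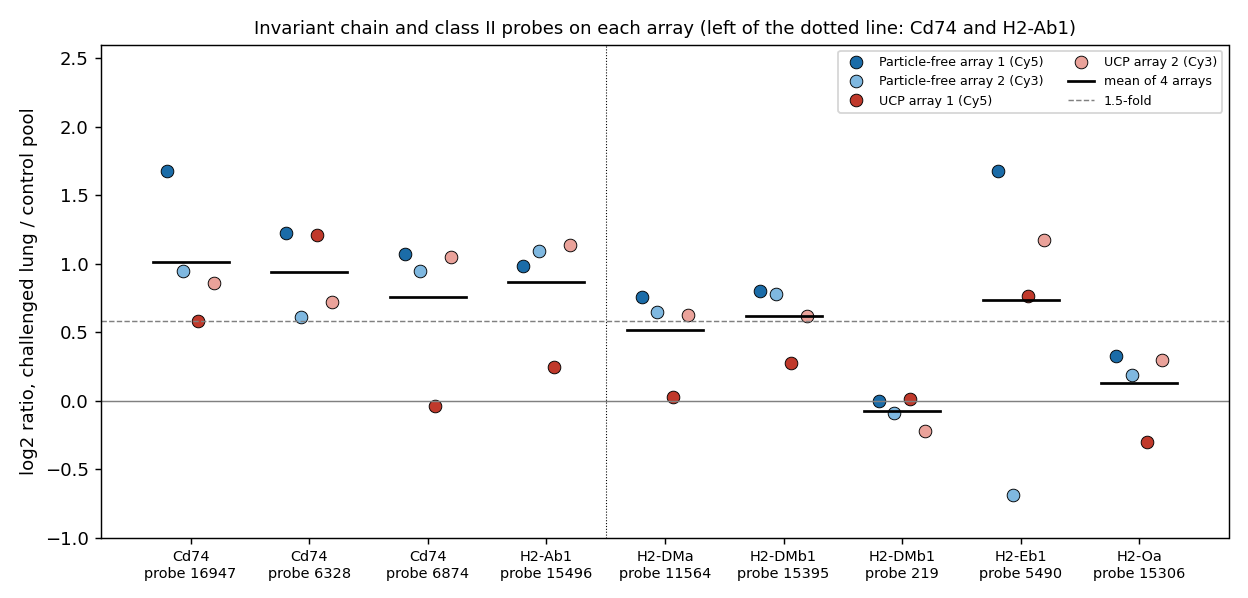
Log2 ratio of challenged lung over control pool (vertical axis) for each probe of Cd74 and H2-Ab1 and, right of the dotted line, of the other class II genes; points are the 4 arrays, bars their mean and the dashed line marks 1.5-fold. The Cd74 and H2-Ab1 probes have means from 0.76 to 1.02, and UCP array 1 gives the lowest point for 6 of the 9 probes.

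Cd74 was read by probes 16947, 6328 and 6874, all annotated to the same transcript record. Probe 16947 lay at 1.67 and 0.94 in particle-free air and at 0.58 and 0.86 in UCP air, with a mean of 1.02 ± 0.47 (SD, n = 4; 2.02-fold, limma adjusted p = 0.182). It was above 0 on all 4 arrays, and its lowest array was at 1.498-fold. Its value on array 1 of particle-free air was the highest of any Cd74 or H2-Ab1 value.

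Probe 6328 lay at 1.23 and 0.61 in particle-free air and at 1.21 and 0.72 in UCP air, with a mean of 0.94 ± 0.32 (SD, n = 4; 1.92-fold, limma adjusted p = 0.198). It was the only one of the 4 probes at least 1.5-fold higher on all 4 arrays, as were 1.13% of all probes. In both airs its Cy5 array was the higher, with means of 1.22 over the Cy5 arrays and 0.67 over the Cy3 arrays.

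Probe 6874 lay at 1.07 and 0.94 in particle-free air and at -0.04 and 1.05 in UCP air, with a mean of 0.76 ± 0.53 (SD, n = 4; 1.69-fold, limma adjusted p = 0.296). It was close to a doubling on 3 arrays and at the control level on array 1 of UCP air. Without that array its mean was 1.02.

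With its 3 probes averaged, Cd74 lay at 1.32 and 0.83 in particle-free air and at 0.58 and 0.88 in UCP air, a mean of 0.90 ± 0.31 (SD, n = 4; 1.87-fold). It had a limma adjusted p of 0.141 over 9153 genes and an unadjusted p of 0.00363. The probe means differed by at most 0.26, less than for 81.9% of the 476 genes with 3 probes, whose median range was 0.59. On single arrays the probes spread more. They differed by 0.60, 0.33 and 0.33 on array 1 and array 2 of particle-free air and array 2 of UCP air, and by 1.25 on array 1 of UCP air, where probe 6328 stood at 1.21 and probe 6874 at -0.04.

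H2-Ab1, the classical beta chain, was read by probe 15496 alone. It lay at 0.98 and 1.09 in particle-free air and at 0.25 and 1.13 in UCP air, with a mean of 0.86 ± 0.42 (SD, n = 4; 1.82-fold, limma adjusted p = 0.239). The values were above 0 on all 4 arrays, and those of 3 arrays lay within a narrow band while array 1 of UCP air was far lower. Without that array the mean was 1.07. Over the Cy5 arrays the mean was 0.62 and over the Cy3 arrays 1.11, the opposite order to Cd74 probe 6328.

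The spread of these probes over the arrays was ordinary. Their SD ran from 0.32 to 0.53, where the median over all probes was 0.40. By averaged ratio they stood high among all probes, at the 98.1, 97.8 and 96.1 percentiles for Cd74 probes 16947, 6328 and 6874 and at the 97.2 percentile for H2-Ab1. Array by array the ranks lay between 87.3 and 97.7 in particle-free air and between 90.8 and 96.1 on array 2 of UCP air. On array 1 of UCP air they ran from 48.0 for Cd74 probe 6874 and 74.2 for H2-Ab1 to 98.2 for Cd74 probe 6328. With 4 arrays the exact sign-flip permutation test cannot give a two-sided p below 0.125, the value reached by each of the 3 probes that were above 0 throughout.

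**Figure D2:**
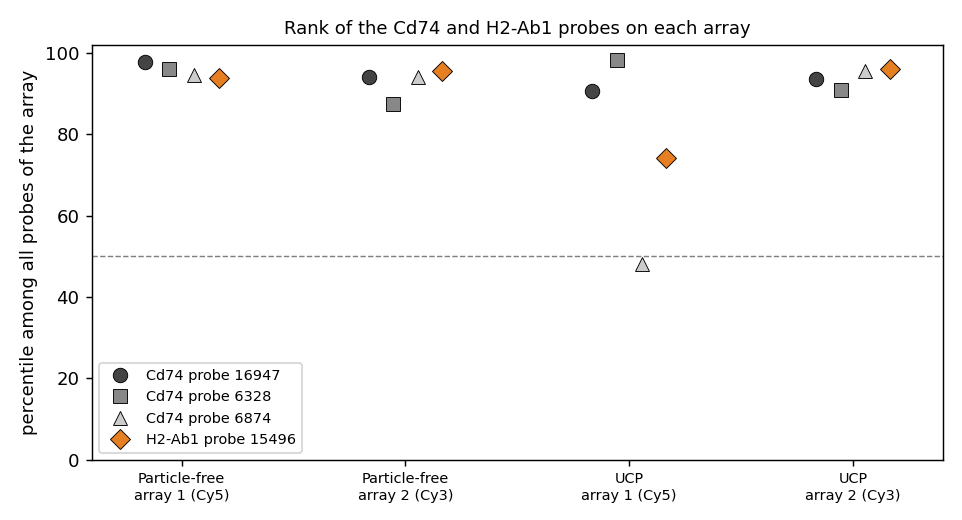
Percentile of each Cd74 and H2-Ab1 probe among all probes tested (vertical axis) on each of the 4 arrays; the dashed line is the median probe. All ranks lie above 87 except on array 1 of UCP air, where they run from 48.0 to 98.2.

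The next question was what challenge did in each air. In particle-free air Cd74 probes 16947, 6328 and 6874 lay at 1.31 ± 0.52, 0.92 ± 0.44 and 1.01 ± 0.09, and H2-Ab1 at 1.04 ± 0.07 (SD, n = 2 each), a 1.89- to 2.48-fold higher level. H2-Ab1 and Cd74 probe 6874 gave almost the same value on both arrays, whereas the other Cd74 probes were higher on the Cy5 array. All 4 had an unadjusted p under 0.05, where 4.55% of all probes did on the high side. The limma adjusted p ran from 0.378 for Cd74 probe 16947 to 0.444 for probe 6874, and limma called 0 of 18160 probes in this air, with 1895 at an unadjusted p under 0.05.

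In UCP air the same Cd74 probes lay at 0.72 ± 0.20, 0.97 ± 0.34 and 0.51 ± 0.77, and H2-Ab1 at 0.69 ± 0.63 (SD, n = 2 each), between 1.42- and 1.95-fold. Only probe 6328 had an unadjusted p under 0.05, against 3.70% of all probes on the high side. The limma adjusted p ran from 0.475 for probe 6328 to 0.743 for probe 6874, and limma again called 0 of 18160 probes, with 1535 at an unadjusted p under 0.05. For Cd74 probe 6874 and H2-Ab1 the SD in this air was about as large as the mean or larger. With array 2 alone their values were 1.05 and 1.13, and with array 1 alone -0.04 and 0.25.

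The airs were not shown to differ. UCP minus particle-free air was -0.35 for H2-Ab1 (95% interval -1.46 to 0.77, limma adjusted p = 0.984). For Cd74 it was -0.59 for probe 16947 (-1.63 to 0.46), 0.05 for probe 6328 (-1.001 to 1.09) and -0.50 for probe 6874 (-1.77 to 0.76), with limma adjusted p from 0.984 to 0.993. The intervals leave room for a difference of more than 1 in either direction for probe 6328, and for a decrease of that size at every probe. Without array 1 of UCP air the difference turned to 0.10 for H2-Ab1 and to 0.04 for Cd74 probe 6874, and to -0.20 for probe 6328. For probe 16947 it kept its sign, at -0.45.

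**Figure D3:**
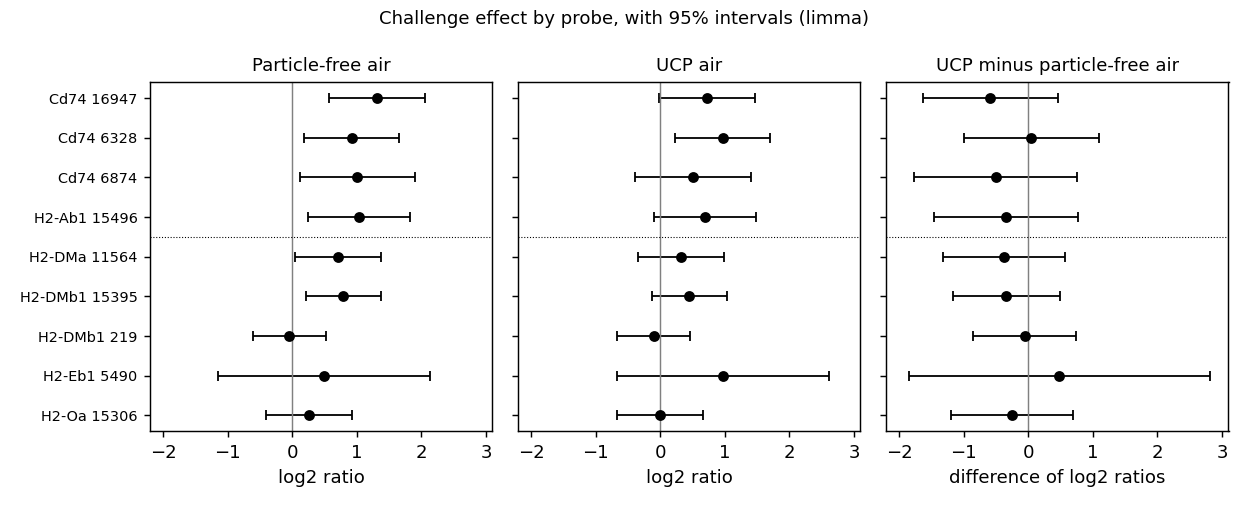
Challenge effect in each air as a log2 ratio (horizontal axis), and the difference between airs, for each class II and Cd74 probe; bars are 95% intervals from limma. In particle-free air the intervals of the 4 Cd74 and H2-Ab1 probes lie above 0, in UCP air that of probe 6328 does, and in the difference every interval spans 0.

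The other class II genes were taken from a list of 10 loci, of which 5 including H2-Ab1 had a probe. All 5 gene averages were above 0, where 4420 of all 9153 genes were. Their median was 0.51, where the median over all genes was -0.01. Above 0 on all 4 arrays were 3 of the 5, beside 14.2% of all genes. By gene, limma called 0 of the 5 in the averaged effect, where 0.0983% of all genes were called. On the high side 2 of the 5 (H2-Ab1 and H2-DMa) had an unadjusted p under 0.05, beside 8.06% of all genes. H2-Eb1, the beta chain of the classical molecule I-E, lay at 1.68 and -0.69 in particle-free air and at 0.77 and 1.18 in UCP air, with a mean of 0.73 ± 1.02 (SD, n = 4; adjusted p = 0.513 by limma). It was higher on 3 arrays and lower on array 2 of particle-free air, so its arrays in that air pointed opposite ways.

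H2-DMa and H2-DMb1 encode the chains of H2-DM, the peptide exchanger. H2-DMa lay at 0.76 and 0.65 in particle-free air and at 0.03 and 0.62 in UCP air, with a mean of 0.51 ± 0.33 (SD, n = 4; limma adjusted p = 0.328). Its pattern was that of H2-Ab1 at a smaller size, with like values on 3 arrays and a value near 0 on array 1 of UCP air. The 2 probes of H2-DMb1 disagreed: probe 15395 lay between 0.28 and 0.80 with a mean of 0.62 ± 0.24, and probe 219 between -0.22 and 0.01 with a mean of -0.08 ± 0.11 (SD, n = 4 each). H2-Oa, a chain of the H2-DM inhibitor H2-O, lay at 0.32 and 0.19 in particle-free air and at -0.30 and 0.30 in UCP air, with a mean of 0.13 ± 0.29 (SD, n = 4). It too was lowest on array 1 of UCP air.

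Array 1 of UCP air thus gave the lowest value for 6 of these 9 class II and Cd74 probes, where it gave the lowest for 22.1% of all probes. The median of the 9 probes was 0.98, 0.65 and 0.72 on the other arrays (array 1 and array 2 of particle-free air and array 2 of UCP air) and 0.25 on that array. Its median over all probes was -0.02, and its spread was the smallest of the 4 arrays, with a median absolute deviation of 0.29 against 0.35 to 0.40. Of the gene lists described further on, those of CD4 T cells (median -0.45 there against -0.16 to 0.10 on the other arrays), thymus (-1.41 against -1.05 to -0.30), heart (-1.94 against -1.75 to -0.02), class II transcription (-0.12 against 0.03 to 0.16) and housekeeping (-0.20 against -0.05 to 0.26) were lowest on that array as well. Macrophage genes (0.95 against 0.55 to 0.71) and dendritic cell genes (0.46 against 0.19 to 0.27) were highest there. So, by little, were genes listed for invariant chain and antigen processing (0.54 against 0.27 to 0.53). The part of these in the low class II values was not tested.

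Transcription of class II genes is known to be driven through the X and Y boxes, short promoter elements bound by the RFX complex and by NF-Y. RefSeq promoter windows of build GRCm38.p6 were matched for 4 of the 6 measured genes, H2-DMa, H2-DMb1, H2-Eb1 and H2-Oa; Cd74 and H2-Ab1 were not matched. The stretches below show where the boxes lie in H2-Eb1, H2-DMb1 and H2-Oa. Capitals mark the letters searched, CNAGNAAC for the X box and TGATTGG for the Y box, which do not overlap; the letters were chosen after these windows had been read. All lie on the plus strand of chromosome 17, upstream of the start, at chr17:34305753-34305832 for H2-Eb1, chr17:34153074-34153154 for H2-DMb1 and chr17:34092280-34092360 for H2-Oa.
H2-Eb1: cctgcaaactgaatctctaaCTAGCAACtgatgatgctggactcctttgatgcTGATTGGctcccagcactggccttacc
H2-DMb1: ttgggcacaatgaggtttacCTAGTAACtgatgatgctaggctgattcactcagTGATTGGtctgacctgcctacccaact
H2-Oa: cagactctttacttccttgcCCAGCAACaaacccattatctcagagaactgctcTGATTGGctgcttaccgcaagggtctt

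In each of these genes the boxes were 25 or 26 bases apart, and the X box began 94 bases before the start of H2-Eb1, 97 before that of H2-DMb1 and 79 before that of H2-Oa. On either strand the X box letters were found in 11.6% and the Y box letters in 7.23% of all 32851 windows of 250 bases. An X box followed by a Y box 10 to 40 bases on, on the coding strand, was found in 24 windows (0.0731%) of 20 genes, among them also H2-Eb2 and H2-Ob, which had no probe here. Neither window of H2-DMa held either set of letters. H2-Eb1, H2-Oa and H2-DMb1 (its probes averaged), which all hold this arrangement, had mean log2 ratios of 0.73 ± 1.02, 0.13 ± 0.29 and 0.27 ± 0.12. H2-DMa, which does not, had a mean of 0.51 ± 0.33 (SD, n = 4 each). These were not tested against each other. A match of letters is a description and no measurement of binding.

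The median over 10 measured genes listed for class II transcription, factors and cofactors alike, was 0.04, with 5 on either side of 0. Limma called 0 of them, and at an unadjusted p under 0.05 there were 2 of 10 on the high side, beside 8.06% of all genes, and 1 of 10 on the low side, beside 7.56%. Irf8, a transcription factor of dendritic cells and macrophages, lay between 0.62 and 1.01 on all 4 arrays, with a mean of 0.77 ± 0.18. Rfx5, a subunit of RFX, lay at 1.69 on array 1 of particle-free air and between -0.08 and 0.42 elsewhere, and Nfya, a subunit of NF-Y, at -1.01 ± 0.69 (SD, n = 4). Irf1, which carries interferon gamma signals, had a mean of 0.42 ± 0.25. The class II coactivator Ciita was not analysed here.

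Genes listed for invariant chain and antigen processing, proteases and others, had a median of 0.44 over 11 measured genes. Of these 8 were above 0, beside 4420 of all 9153 genes. By gene, limma called 0 of the 11, and 5 of the 11 had an unadjusted p under 0.05 on the high side, beside 8.06% of all genes. Ctss, the cathepsin that cleaves the invariant chain in antigen-presenting cells, lay at 1.78 and 2.38 in particle-free air and at 2.25 and 2.65 in UCP air, with a mean of 2.27 ± 0.36 (SD, n = 4; 4.81-fold, limma adjusted p = 0.0551). It was thus higher on every array than any Cd74 or H2-Ab1 value, and array 1 of UCP air was not its lowest. Ctsz and Ctsb, lysosomal cysteine proteases, had means of 1.31 ± 0.27 and 0.95 ± 0.16, and the aspartic protease Ctsd a mean of 0.70 ± 0.25 (SD, n = 4 each).

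Class I presentation genes, which show peptides to CD8+ T cells, had a median of 0.47 over 12 genes. Of these 8 were above 0, beside 4420 of all 9153 genes, and 7 were above 0 on all 4 arrays, beside 14.2%. H2-K1, a class I heavy chain, lay at 0.66 ± 0.23 and the immunoproteasome subunit Psmb8 at 0.53 ± 0.17. The proteasome activator Psme1 lay at 0.86 ± 0.87, with 2.13 on array 2 of UCP air, and the peptide transporter Tap1 at -0.61 ± 0.38, below 0 on each array (SD, n = 4 each). Interferon gamma response genes had a median of 0.16 over 8 genes, with Tgtp1, an interferon-induced GTPase, at 0.51 ± 0.13, Igtp of the same family at 0.21 ± 0.41 and the kinase Jak1 at -0.28 ± 0.67. Of the partners of the invariant chain at the cell surface, Cd44, its coreceptor, lay at 0.25 ± 0.53, and Ddt, a relative of its ligand Mif, at -0.02 ± 0.39. By gene, limma called none of the class I, interferon or partner genes; an unadjusted p under 0.05 was reached on the high side by 7 of 12 class I, 2 of 8 interferon and 0 of 2 partner genes, beside 8.06% of all genes. On the low side it was reached by 1 of 12 class I genes, close to the 7.56% of all genes.

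Markers of the cells that carry class II are given beside these values, and their part in the Cd74 and H2-Ab1 result was not tested. Macrophage genes had a median of 0.81 over 14 genes, 10 of them above 0 on all 4 arrays, beside 14.2% of all genes. Mrc1, a mannose receptor, lay at 1.82 ± 0.22 and Lgals3 at 1.82 ± 0.28. Fcer1g lay at 1.498 ± 0.62 and the scavenger receptor Msr1 at 1.23 ± 0.34. Below 0 were 3 of the 14 macrophage genes, beside 4733 of all 9153 genes. These were Marco at -0.36 ± 0.36, Lyz2 at -0.34 ± 0.33 and C1qb at -0.11 ± 0.31. Dendritic cell genes had a median of 0.30 over 14 genes, 12 above 0, beside 4420 of all 9153 genes. The chemokines Ccl17 and Ccl22 lay at 1.95 ± 0.85 and 1.03 ± 0.27. The lectin Clec4a2 lay at 1.22 ± 1.27 and the costimulatory receptor Cd40 at 0.83 ± 0.62. The dendritic cell genes Clec9a and Ly75 lay below 0, at -0.51 ± 0.57 and -0.12 ± 0.43. B cell genes had a median of 0.09 over 7 genes, with Pou2af1 at 1.31 ± 0.48, Blnk at 0.73 ± 0.76, Tnfrsf13c at -0.49 ± 0.33 and Cd22 at 0.36 ± 0.19 (SD, n = 4 each). Macrophage genes were above 0 by their median on each array, from 0.55 to 0.95, and B cell genes were not, from -0.36 to 0.43. By gene, limma called 0 of the genes of these lists in the averaged effect. On the high side 10 of 14 macrophage, 4 of 14 dendritic cell and 1 of 7 B cell genes had an unadjusted p under 0.05, beside 8.06% of all genes. On the low side 1 of 7 B cell genes did, beside 7.56%.

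Alveolar type 2 genes had a median of -0.20 over 8 genes, 6 below 0, beside 4733 of all 9153 genes. By gene, limma called 0 of them, and 2 of 8 had an unadjusted p under 0.05 on the low side, beside 7.56% of all genes. The surfactant protein Sftpb lay at -0.88 ± 0.25, Scd1 at -0.72 ± 0.45, Etv5 at -0.26 ± 0.26 and Lpcat1 at -0.23 ± 0.17. The other 2 of the 8, Sftpc and Abca3, lay just above 0, at 0.065 ± 0.28 and 0.067 ± 0.44. CD4 T cell genes, the readers of class II, had a median of -0.11 over 6 genes, with Cd3g at -0.33 ± 0.19, Lat at -0.24 ± 0.42, Foxp3 at 0.22 ± 0.23 and Cd3d at -0.20 ± 0.39 (SD, n = 4 each). Housekeeping genes had a median of 0.04 over 8 genes, with Rpl13a, Ppia, Tbp and Sdha at 0.66 ± 0.11, 0.52 ± 0.15, 0.51 ± 1.08 and -0.38 ± 0.31. The values of Rpl13a and Ppia, meant as controls, were above 0 on all 4 arrays and of the size of the H2-DMa value.

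List medians of genes from other organs also differed between the airs, given here as values without a test. Liver-made genes had list medians of 2.94 and 2.47 in particle-free air and of 0.52 and 0.30 in UCP air, with Alb, Hpx, Serpina1d and Serpina1e at 4.61 ± 0.20, 3.66 ± 0.23, 3.32 ± 0.26 and 3.48 ± 0.04 in particle-free air. Heart genes had medians near 0 in particle-free air and of -1.94 and -1.75 in UCP air, with Nppa, Myl4, Myl7 and Tnnt2 at -5.81 ± 0.14, -2.74 ± 0.04, -2.83 ± 0.24 and -2.76 ± 0.26. Thymus genes, from an organ rich in class II, had medians of -1.41 and -1.05 in UCP air and of -0.38 and -0.30 in particle-free air, with Prss16, Dntt, Cd8a and Satb1 at -2.25 ± 0.94, -1.64 ± 0.06, -1.58 ± 0.03 and -0.99 ± 0.77 in UCP air. Fat genes were low in both airs, with Gpd1, Car3, Fabp4 and Adipoq at -2.48 ± 0.91, -2.03 ± 0.49, -1.55 ± 0.60 and -0.87 ± 0.65 over the 4 arrays (SD, n = 2 per air and 4 over both). The part of these organs in the class II values was not tested.

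**Figure D4:**
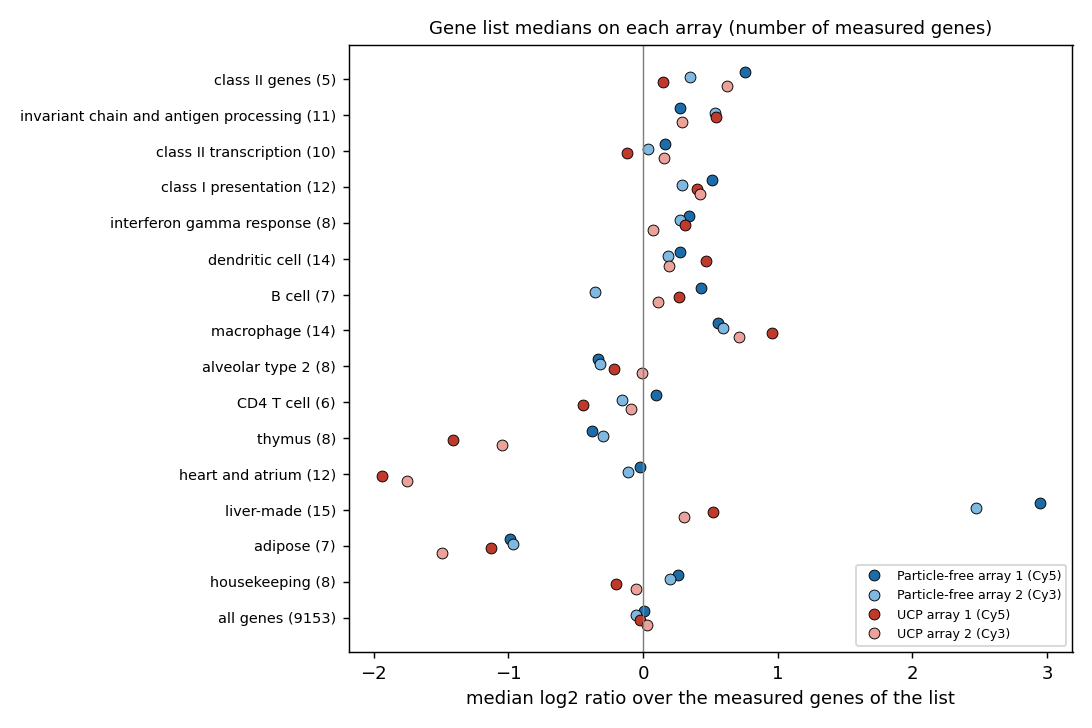
Median log2 ratio over the measured genes of each list (horizontal axis) on each of the 4 arrays, with the number of genes in brackets. Class II genes run from 0.14 on array 1 of UCP air to 0.76 on array 1 of particle-free air, macrophage genes lie above 0 on every array, and liver-made, heart and thymus genes separate the airs.

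The genes most like Cd74 and H2-Ab1 over the 4 arrays were found by the root mean square difference of their log2 ratios, among 9152 other genes. For Cd74 these were C1qc, Rgs4, Unc93b1, Fdx1 and Colgalt1, at differences of 0.14 to 0.16. For H2-Ab1 they were Tuba3b, at 0.06, and Col6a2, Syngr2, Tmem256 and Pik3cd, at 0.13 to 0.15. Cd74 was the 31st nearest gene to H2-Ab1 and H2-Ab1 the 55th nearest to Cd74, at 0.30. H2-DMa ranked 84th from H2-Ab1, and H2-Eb1 4059th. Each of these nearest genes was read by 1 probe, and 4 arrays allow no test of likeness.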

How the data were processed

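Lung RNA of challenged mice was hybridised against a control pool on 4 dual-colour arrays. Each organ was extracted on its own, and 20 µg of its total RNA went into reverse transcription with indirect dye labelling, per the labels' protocols. The authors deposited 1 log2 ratio of the channels per probe and array. For their centring and normalization, scanner and image software nothing was found in the sources, and no brightness values were used, so dim probes could not be filtered. Array medians ran from -0.07 to 0.02.

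Of 20205 probes 13852 had 1 gene symbol in GEO's platform annotation, 0 had several and 6353 had none; 13849 were updated through the Entrez identifier. Models were fitted with limma 3.58.1 in R 4.3.3 on 18160 probes, with 1 coefficient per air (2 residual and 2.32 prior degrees of freedom), two-sided at an adjusted p of 0.05. Gene lists used the probes of a gene averaged, fitted the same way over 9153 genes, and are described by counts and medians. The fit was tested on simulated data. Named genes were the class II genes and the 4 measured genes of each list with the largest absolute mean. The 5 nearest genes of Cd74 and of H2-Ab1 were named too. Macrophage and dendritic cell genes below 0 and alveolar type 2 genes above 0 were added, to show list members that went the other way. Chil3 is named for the sign only. The members and lists were chosen with earlier results of these data known. Alternatives were the dye orientation as a replicate block, centring, scaling, averaged probes, a looser filter, other variance priors, other fold thresholds, averaged arrays and leaving out each array.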

Additional observations from a re-analysis of the deposited data

Results flagged for a closer look

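Of the 9 class II and Cd74 probes, 2 had 1 array far from the other 3 by Dixon's test at 95%. It divides the gap to the nearest array by the whole range. For normally distributed values chance flags about 1 in 20 such groups. The share flagged among all probes of these arrays was not computed. Both flags fall on the same array, so they are not separate evidence. Cd74 probe 6874 lay at -0.04 on array 1 of UCP air against a mean of 1.02 on the other arrays, a ratio of 0.885. H2-Ab1 probe 15496 lay at 0.25 on the same array against 1.07, a ratio of 0.832. H2-DMa, at 0.03 on that array, had a ratio of 0.818 and fell just short. Cd74 probe 6328 lay at 1.21 there, among its highest values.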

How the results depend on the processing

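The averaged log2 ratios of the 4 Cd74 and H2-Ab1 probes stayed above 0 under all 48 combinations of probe and alternative, from 0.48 to 1.198, and none was called, with limma adjusted p from 0.141 to 0.772. In particle-free air they ran from 0.61 to 1.67 over 44 combinations, and none was called. Many of these combinations could not move a value. The replicate block, the looser filter, other variance priors and averaged arrays keep each log2 ratio by construction, so their sign was fixed in advance. Averaging probes keeps that of H2-Ab1, and leaving out a UCP array keeps the values of particle-free air. The replicate number, which is also the dye orientation, could be fitted as a replicate block. This block left every value in place and called none of the 4 probes (limma adjusted p at least 0.317). It took the number of probes called in the averaged effect from 1 to 0. Same-numbered arrays deviated together only weakly (r = 0.05 across probes, 0.12 by rank), and the numbers were not taken to pair the samples. The log2 ratios themselves also correlated weakly across probes. Pearson r was 0.069 between both particle-free arrays and 0.161 between both UCP arrays. For arrays of different airs it ran from 0.072 to 0.178, so a shared air did not set a pair apart. Each mean and SD of a single air rests on such a pair.

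Leaving out 1 array turned the sign of the UCP effect of Cd74 probe 6874 (-0.04 to 1.05) and of the difference between airs for H2-Ab1 (-0.79 to 0.10), Cd74 probe 6874 (-1.05 to 0.044) and Cd74 probe 6328 (-0.26 to 0.35). With the Cd74 probes averaged the difference was -0.35. That value also takes in probes 16947 and 6874, at -0.59 and -0.50 alone, and is not a value of probe 6328.

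Probes called in the averaged effect numbered 0 without moderation or with the arrays of an air averaged, 2 with arrays scaled, 9 with probes of a gene averaged and 0 to 34 without 1 array. In particle-free air the count was 1 with averaged probes, 10 with probes on at least 3 arrays and 0 to 24 without 1 array. In UCP air it was 2 with averaged probes and 0 to 36 without 1 array, and in the difference 0 to 32. Probes at least 1.5-fold higher on all 4 arrays numbered 206, against 62 at 2-fold, 749 at 1.2-fold and 295 to 330 on 3 arrays; array 1 of UCP air, when left out, gave 330. Without it, all 4 Cd74 and H2-Ab1 probes were at least 1.5-fold higher on the arrays that remained.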

Other observations

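With the Cd74 probes averaged, the gap between Cd74 and H2-Ab1 on an array went with the dye orientation, which is also the replicate number. Cd74 minus H2-Ab1 was then 0.34 and 0.33 on the arrays where challenged lung carried Cy5. It was -0.26 and -0.26 on those where it carried Cy3, in both airs alike. Cd74 probe 6874 alone did not keep this order in UCP air. It lay at -0.04 and 1.05 on array 1 and array 2, where H2-Ab1 lay at 0.25 and 1.13. Over the 4 arrays the gap with averaged probes was 0.04 ± 0.34 (SD, n = 4), and most of that spread lay between the dye orientations. The exact sign-flip permutation test of this mean gap against 0 gave p = 0.75. With 4 arrays it cannot go below 0.125, and the dye pattern itself was not tested.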
